A study of Mus musculus with 6 samples.

Results

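The kallikrein-related peptidases of the epidermis were followed by their transcripts in the skin of mice that lack JunB in the epidermis. The genes are the 10 neighbours Klk5 to Klk14, chosen by symbol, and all 10 were found among the 23951 genes of the expression table. RNA sequencing had been done on whole skin of 3 JunB dep mice and 3 JunB +/+ controls, all of strain C57Bl/6 and labelled 6-7 months old. JunB dep stands for deletion of JunB, a subunit of the AP-1 transcription factor, in cells that express keratin 5, by a K5-Cre transgene. The study describes the mutant skin as lesional, and the mice as of both sexes. Whole skin also holds fibroblasts, immune cells, muscle and fat, in which the deletion is not made. Values are FPKM, the fragments of a gene scaled to 1 kilobase of its transcript and to 1000000 aligned fragments, which can be set side by side between genes because they are given per length. The number of reads per mouse is unknown. Mice are named by the replicate numbers 0, 1 and 2 of the labels.

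Tissue kallikreins are trypsin-like or chymotrypsin-like serine proteases that are made as inactive precursors. In the epidermis they are secreted by granular keratinocytes, activate one another in a cascade and cut the corneodesmosomes that hold the outermost cells together, so that these cells can be shed. The inhibitor LEKTI, the product of Spink5, keeps them in check, and its loss in Netherton syndrome leads to excessive shedding and a broken barrier. KLK5 and KLK14 can also cut the receptor PAR2 (gene F2rl1), and KLK5 and KLK7 process cathelicidin.

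The deleted gene was examined first. The 3 controls had 59.3, 72.4 and 56.9 FPKM of Junb. The libraries labelled JunB dep replicates 1 and 2 had 42.8 and 28.0 FPKM, but the library labelled JunB dep replicate 0 had 129.6 FPKM and so exceeded all controls. That library thus lacked the lower Junb level of the other JunB dep mice. Whole skin also holds cells in which the deletion is not made, so this level cannot show whether the epidermis kept the gene. The label, which this level leaves in doubt, was kept. The limma fold changes and calls of the kallikreins are given below with and without the library. The library stood apart in other genes as well. The 4 mucosal keratinization genes Krt4, Krt13, Krt76 and Sprr3 summed to 3797 FPKM there and to between 0.394 and 1.40 FPKM elsewhere. The 5 neutrophil genes, S100a8 among them, summed to 24977 FPKM against 16.6 to 789 FPKM. Most of this sum was S100a8, with 24456 FPKM in JunB dep replicate 0 and 744 FPKM in control replicate 0. The others, Csf3r, Cxcr2, Retnlg and Mmp9, were at 44.3, 22.3, 418 and 36.8 FPKM in JunB dep replicate 0, above all other mice. Krt14, Krt6a, Krt6b and Krt16 were listed at 0 FPKM there, although Krt5, the partner of Krt14, was at 3725 FPKM. Krt17, the other stress keratin of the list, was at 4025 FPKM there (626 to 1319 elsewhere), and the suprabasal keratin Krt1 was at 4466 FPKM (446 to 958 elsewhere). Of the markers of epidermis, Krt5 (1588 to 3725 FPKM), Krt10 (1968 to 3872 FPKM) and Lor (823 to 3011 FPKM) were abundant in all 6 mice. Others were low in JunB dep replicate 0, where Krt15 was at 80.7 FPKM (947 to 2388 elsewhere) and Flg2 at 3.08 FPKM (68.2 to 139 elsewhere). The 6 skeletal muscle markers summed to 13980 to 17930 FPKM per control mouse but only 1343 to 3219 FPKM per mutant, and 5 of the 6 were called lower by limma, where 1.38% of all genes tested were called. Without JunB dep replicate 0 all 6 were still lower, but 0 of 6 were called (limma, adjusted p from 0.0578 to 0.148). No gene of the table was called with any one control or JunB dep replicate 1 left out, or when replicate numbers, or the number series in the sample names, entered the fit as a block, so these calls end there too. In bulk tissue, fewer cells of a type and less RNA per cell cannot be told apart.

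The 10 genes form an unbroken block on chromosome 7 of the mm9 build, from 50945788 to 51106551, all on the plus strand. From left to right the order is Klk14, Klk13, Klk12, Klk11, Klk10, Klk9, Klk8, Klk7, Klk6 and Klk5. No other protein-coding gene lies between them in the GENCODE annotation, and the gaps run from 820 bp, between Klk9 and Klk8, to 42138 bp, between Klk13 and Klk12. The long noncoding RNA 2310002F09Rik runs over part of the block on the minus strand. The libraries keep strand, but the study's methods do not state whether strand was used for the FPKM values. The genes have 5 to 7 exons. Because JunB binds DNA as part of AP-1, the AP-1 site letters TGAGTCA (read on the other strand as TGACTCA) were looked for. The 12 RefSeq windows of the 10 genes (GRCm38.p6; 250 bases before to 50 after a start) held none, against 5.2% of 32851 windows of all genes. In the block as a whole there were 47 matches, 29.2 per 100 kb, against 16.5 per 100 kb on chromosome 7. A match lay within 1000 bp of the gene start in 6 of 10 kallikreins and in 27.5% of 2072 protein-coding genes of that chromosome. For the 4 genes whose levels differed most between mice, and for Klk7 and Klk5, whose levels differed least, the nearest match is given with its flanks on the plus strand of mm9, with the AP-1 letters in capitals.
Klk6: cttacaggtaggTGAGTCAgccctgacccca
Klk12: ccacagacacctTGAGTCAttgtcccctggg
Klk13: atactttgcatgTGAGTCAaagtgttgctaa
Klk14: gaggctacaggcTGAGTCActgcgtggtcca
Klk7: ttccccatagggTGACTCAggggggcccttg
Klk5: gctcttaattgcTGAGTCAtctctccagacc
Distances are from the gene starts of GENCODE, which differ from the RefSeq starts of the windows for some genes, so that the window of Klk12 does not reach its match. The first window of Klk6 ends at 51079963, within the flank of its match and just short of the AP-1 letters. The Klk6 match is at chr7:51079955-51079985, in an intron 98 bp after the gene start. Those of Klk12 (chr7:51024045-51024075), Klk13 (chr7:50966874-50966904) and Klk14 (chr7:50944899-50944929) lie 204, 1045 and 871 bp before the start, between protein-coding genes. That of Klk7 (chr7:51070657-51070687) lies in an exon, 3855 bp after the start, and that of Klk5 (chr7:51098269-51098299) in an intron, 642 bp after it. Of the letters searched afterwards in the same windows, the TATA box letters TATAAA were in none of the 12 (8.32% of all windows). AP-1 letters with any middle base, TGANTCA, which include the first, were in none (7.81% of all windows), nor were the grainyhead letters AACCNGTT (2.09%). The STAT letters TTCNNNGAA were in 1 window, that of Klk10 (8.3% of all windows). All were searched on both strands except the TATA box, which was searched in the direction of transcription. These matches describe the sequence, and binding was not measured.

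In control skin the kallikreins spanned nearly 3 orders of magnitude. Klk7, the chymotrypsin-like stratum corneum enzyme, was the most abundant, at 225 ± 27.0 FPKM (SD, n = 3), followed by Klk5, the trypsin-like enzyme that can start the cascade, at 103 ± 20.1 FPKM. Klk11, Klk10 and Klk8 came next at 48.8 ± 7.30, 47.9 ± 14.5 and 43.1 ± 6.18 FPKM, and their ranges overlapped. Klk11 was above Klk8 in 3 of 3 control mice, while the place of Klk10 among them differed between mice. Klk9 followed at 13.8 ± 3.00 FPKM. Klk6, Klk13, Klk14 and Klk12 were all under 5 FPKM, at 4.52 ± 2.71, 1.39 ± 1.20, 0.761 ± 0.443 and 0.288 ± 0.107 FPKM. The ranges of Klk6 and Klk13, and of Klk13 and Klk14, overlapped, although the first of each pair was above the second in 3 of 3 control mice. Klk5 and Klk7 together made up 66.0% to 68.4% of the summed kallikrein FPKM of a control mouse.

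**Figure D1:**
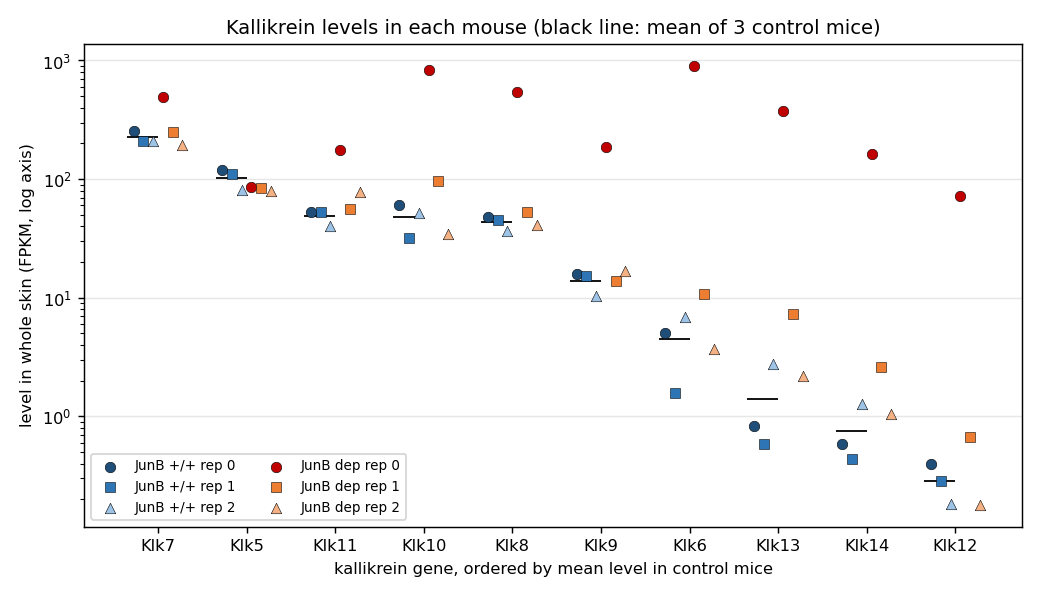
Level of each kallikrein in each of the 6 mice (FPKM, log axis), with genes ordered by their mean in the 3 controls (black lines). The red circle, JunB dep replicate 0, lies above all other mice for 9 of 10 genes, Klk5 being the exception, while the other 5 mice differ by 1.33 times (Klk7) to 12.5 times (Klk13).

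With all mice, the estimated differences between genotypes were the smallest of the family for the 2 leading desquamation enzymes, and neither passed the test. Without JunB dep replicate 0 this held for Klk7 only. The estimates of Klk8, Klk9, Klk10 and Klk12 were then smaller in size than that of Klk5. Klk5 (51097639 to 51106551) measured 118, 111 and 80.3 FPKM in the controls, against 85.7, 83.5 and 78.8 FPKM in the mutants, each in the order of replicates 0, 1 and 2, as for all genes that follow. It was the only kallikrein with a lower mean in mutants, and the groups overlapped. Its log2 fold change (JunB dep minus control, on the log2(FPKM + 0.5) scale) was -0.30, with a 95% interval of -0.76 to 0.16 (limma, adjusted p = 0.722), and -0.33 without JunB dep replicate 0. Klk7 (51066814 to 51071729) measured 257, 210.0 and 209.8 FPKM in the controls, against 492, 249 and 194 FPKM in the mutants. JunB dep replicate 0 was 1.92 times the next highest mouse, and of the other mutants 1 was within the control range and 1 below it. The log2 fold change was 0.36, with a 95% interval of -0.54 to 1.25 (limma, adjusted p = 0.746), and turned to -0.03 without that library. The ratio of Klk5 to Klk7 was 0.383 to 0.528 in controls, 0.335 and 0.407 in JunB dep replicates 1 and 2, and 0.174 in JunB dep replicate 0.

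Klk8, Klk9, Klk10 and Klk11, the genes of middle level, were all highest in JunB dep replicate 0. Klk8 (51052947 to 51059192), also known as neuropsin, is expressed in suprabasal keratinocytes and in brain. It was at 48.0, 45.2 and 36.2 FPKM in controls and at 538, 52.8 and 41.1 FPKM in mutants. The value of 538 FPKM was 10.2 times the next highest, JunB dep replicate 1 was above all controls by a small margin, and replicate 2 was within their range. Klk9 (51047261 to 51052126), a chymotrypsin-like member, measured 15.8, 15.4 and 10.4 FPKM in the controls, against 186, 13.8 and 16.8 FPKM in the mutants. Klk10 (51036424 to 51040780) measured 60.4, 31.9 and 51.4 FPKM in the controls, against 836, 96.9 and 34.6 FPKM in the mutants. Klk10 was thus high in JunB dep replicate 0, above all controls in replicate 1 and within the control range in replicate 2. The log2 fold changes of Klk8, Klk9 and Klk10 were 1.29, 1.35 and 1.60 with all mice and 0.12, 0.16 and 0.32 without JunB dep replicate 0, and none passed limma's test in either case.

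Klk11 (51029987 to 51034628), a trypsin-like member, was the only kallikrein whose groups did not overlap. It was at 53.3, 52.7 and 40.4 FPKM in controls and at 176, 56.4 and 78.2 FPKM in mutants. All 3 mutants were above all 3 controls, the lowest of them by a small margin. Such a separation with mutants higher was seen in 5.62% of the 17021 genes tested, and 1 of 10 kallikreins is to be read against that share. The log2 fold change of Klk11 was 0.92, with a 95% interval of -0.12 to 1.95 (limma, adjusted p = 0.708), and 0.45 without JunB dep replicate 0 (limma, adjusted p = 0.725). The exact two-sided permutation test gave p = 0.1, the smallest that 3 mice against 3 allow.

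The 4 kallikreins that were scarce in control skin, Klk6, Klk12, Klk13 and Klk14, differed most in JunB dep replicate 0. Klk6 (51079869 to 51087397), a trypsin-like protease also known from the central nervous system, measured 5.05, 1.58 and 6.93 FPKM in the controls, against 899.8, 10.7 and 3.67 FPKM in the mutants. With 899.8 FPKM it was the most abundant kallikrein of that library, 199 times the control mean, while JunB dep replicate 2 fell within the control range. Klk13 (50967937 to 50982128), which is known from stratified mucosal epithelia, measured 0.824, 0.583 and 2.76 FPKM in the controls, against 372, 7.30 and 2.20 FPKM in the mutants. Klk14 (50945788 to 50950906), a trypsin-like enzyme of the shedding cascade, measured 0.580, 0.436 and 1.27 FPKM in the controls, against 161, 2.60 and 1.05 FPKM in the mutants. For both genes JunB dep replicate 1 was above every control and JunB dep replicate 2 was within their range. Klk12 (51024267 to 51028946), another trypsin-like member, measured 0.396, 0.285 and 0.182 FPKM in the controls, against 71.7, 0.672 and 0.180 FPKM in the mutants. Here the lowest and the highest of the 6 values were both from mutants. The mucosal sum and the neutrophil sum, most of it S100a8, were also highest in JunB dep replicate 0. In the same library 4 adipocyte markers summed to 13.95 FPKM (386 to 1905 elsewhere) and 3 myelinating glia markers to 24.9 FPKM (59.7 to 169 elsewhere). The part of these cell types in the kallikrein values was not tested. The 8 measured markers of the granular layer, which secretes kallikreins, differed in both directions in that library. Lor was at 823 FPKM there (controls 1408 to 3011) and Flg2 at 3.08 FPKM (87.0 to 139), while Casp14 was at 303 FPKM (18.7 to 46.6) and Tgm3 at 60.7 FPKM (0.465 to 11.3). Their median difference from the control mean was 0.58 on the log2 scale, beside 3.94 for the 10 kallikreins.

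With all mice, the log2 fold changes of these 4 genes were the largest of the family and the least certain. They were 2.98 for Klk6 (95% interval -1.86 to 7.82), 3.57 for Klk13 (-0.82 to 7.96), 2.92 for Klk14 and 2.30 for Klk12. Without JunB dep replicate 0 they were 0.63, 1.45, 0.86 and 0.19, in the same order. The highest of these without that library, that of Klk13, had a limma adjusted p of 0.716. The estimate of Klk12 was then smaller in size than those of Klk5, Klk10 and Klk11. Its standard error (0.285) was also below that of Klk10 (0.520). The pseudocount of 0.5 FPKM reduces the fold change of genes at this level.

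**Figure D2:**
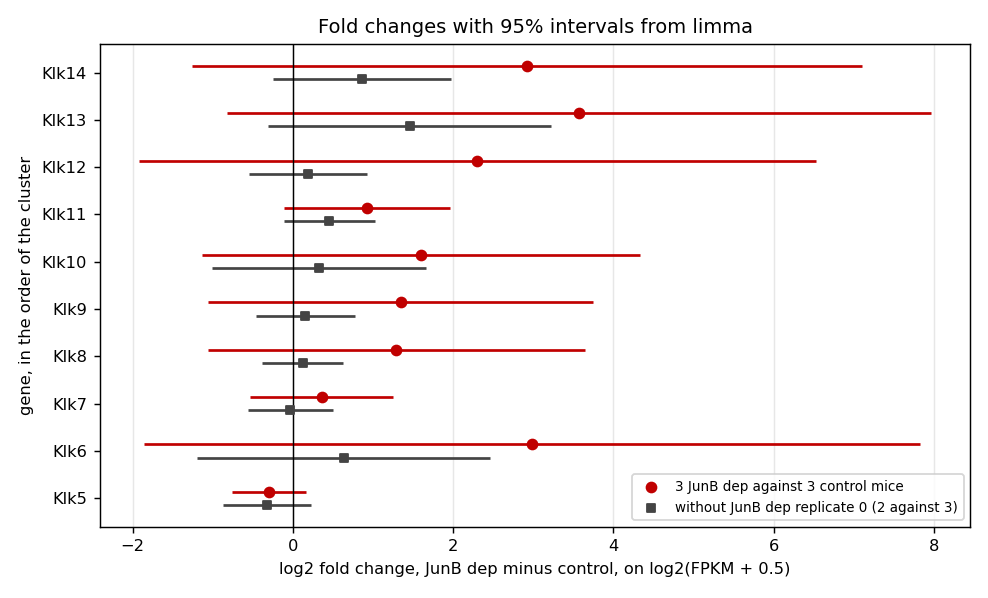
Log2 fold change of each kallikrein (JunB dep minus control, on log2(FPKM + 0.5)) with limma's 95% interval, for all 6 mice (red circles) and without JunB dep replicate 0 (grey squares). All 20 intervals include 0, and leaving out the library brings the estimates of the 4 scarce genes from between 2.30 and 3.57 down to between 0.19 and 1.45.

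Across the family, 0 of 10 kallikreins passed an adjusted p of 0.05 in limma, where 1.38% of the 17021 genes did (235 genes, all of them lower in mutants). At an unadjusted p of 0.05 with mutants higher, 0 of 10 passed, against 1.43% of all genes. Without JunB dep replicate 0, 0 of 10 passed this p in either direction, but the share of all genes was not counted. At the adjusted threshold, 0 of 10 passed without that library, against 0.77% of genes. Estimates were above 0 for 9 of 10 kallikreins, and for 8 of 10 without JunB dep replicate 0. Their median was 1.47 on the log2 scale with all mice and 0.26 without that library, beside 0.03 over all genes tested in either case. Adjusted p-values of the 10 genes ran from 0.708 to 0.746, and from 0.716 to 0.966 without the library. Intervals as wide as that of Klk6 leave a large change in either direction within the estimate.

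The differences of JunB dep replicate 0 were uneven along the cluster. It was more than 2-fold above the highest of the other 5 mice for 8 of 10 kallikreins, all but Klk5 and Klk7, which was so for 6.51% of all genes tested. Against the control mean, Klk14, Klk13 and Klk12 at one end were 212, 268 and 249 times higher. Their neighbour Klk11 was 3.60 times higher, and Klk10, Klk9 and Klk8 were 17.5, 13.5 and 12.5 times higher. Klk7 was 2.18 times higher, Klk6 was 199 times higher, and Klk5, at the other end, was at 0.831 times the control mean. Genes of small and of very large difference were thus next to each other, and the 4 with ratios of 199 and above were the 4 that were scarcest in controls. All of these ratios rest on 1 library.

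**Figure D3:**
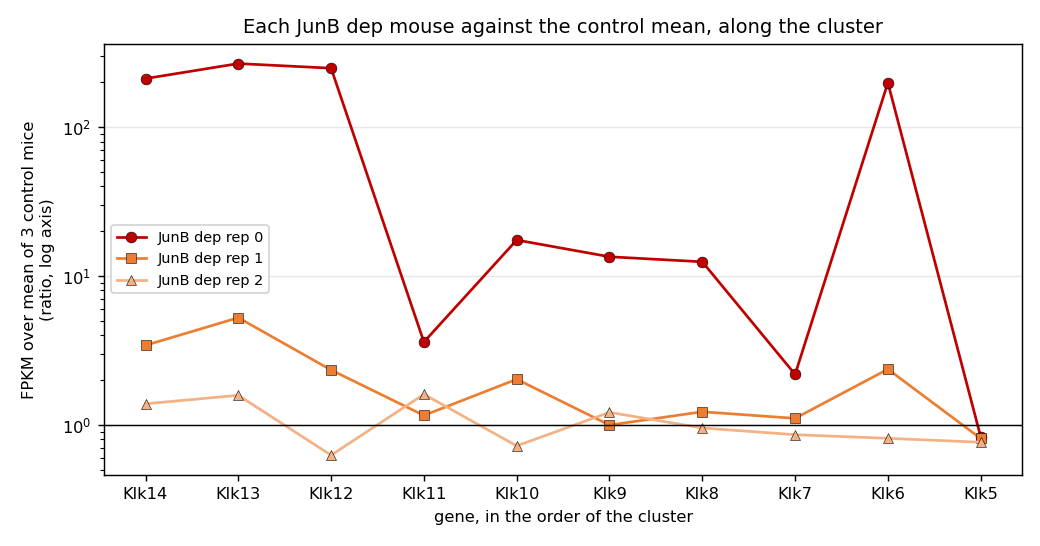
FPKM of each JunB dep mouse divided by the mean of the 3 controls (log axis), with genes in the order in which they lie in the cluster; the black line marks 1. JunB dep replicate 0 runs from 0.831 (Klk5) to 268 (Klk13), with low points at Klk11 and Klk7 between higher neighbours and at Klk5 at the end, while JunB dep replicates 1 and 2 together run from 0.625 (Klk12) to 5.25 (Klk13).

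The make-up of the kallikrein pool differed accordingly. The 10 genes summed to 559, 469 and 440 FPKM in controls, to 574 and 450 FPKM in JunB dep replicates 1 and 2, and to 3819 FPKM in JunB dep replicate 0. The last was 7.81 times the control mean of 489 ± 62.3 FPKM. Klk5 and Klk7 made up 58.0% and 60.5% of the sum in JunB dep replicates 1 and 2, below the 66.0% to 68.4% of controls, and 15.1% in JunB dep replicate 0. The scarce genes Klk6, Klk12, Klk13 and Klk14 made up 0.615% to 2.53% of the sum in controls, 3.70% and 1.58% in JunB dep replicates 1 and 2, and 39.4% in JunB dep replicate 0. In that library the order of levels was Klk6, Klk10, Klk8, Klk7, Klk13, Klk9, Klk11, Klk14, Klk5 and Klk12.

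**Figure D4:**
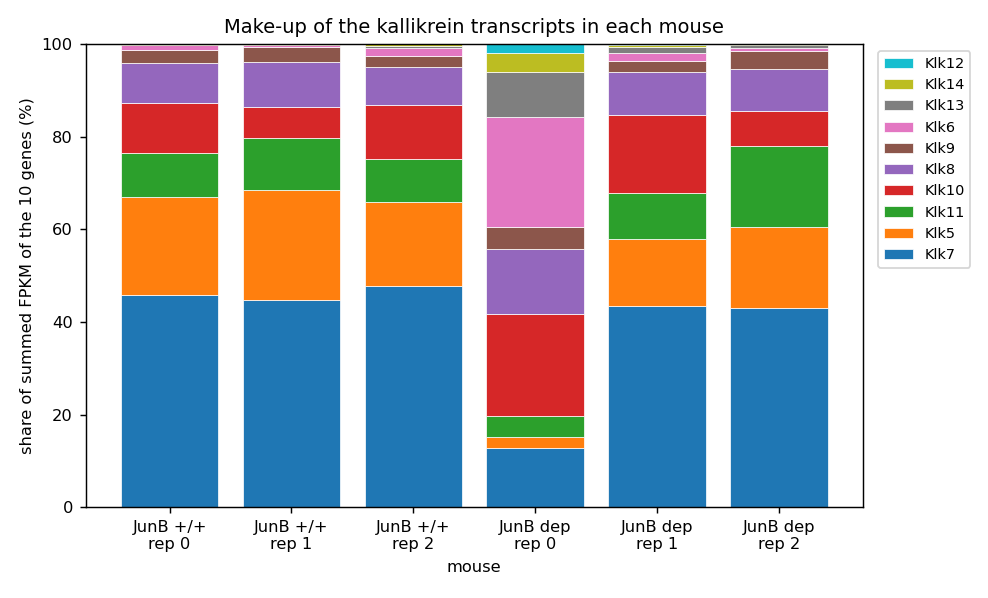
Share of each kallikrein in the summed FPKM of the 10 genes, in percent, for each mouse. Klk7 and Klk5 (blue and orange, at the bottom) take 58.0% to 68.4% in 5 mice and 15.1% in JunB dep replicate 0, where Klk6, Klk10, Klk8 and Klk13 take up most of the rest.

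Among the other 5 mice, JunB dep replicate 1 was the highest for 6 of 10 kallikreins (Klk6, Klk8, Klk10, Klk12, Klk13 and Klk14), which was so for 30.4% of all genes tested. For Klk13 and Klk14 the order of these mice was the same, from JunB dep replicate 1 through control replicate 2, JunB dep replicate 2 and control replicate 0 down to control replicate 1. The markers of the hair follicle inner root sheath, a layer of the growing hair, also differed between these mice. The 5 genes Krt25, Krt27, Krt71, Krt73 and Tchh summed to 5720 FPKM in JunB dep replicate 1, 3448 in control replicate 2, 310 in JunB dep replicate 0, 89.0 in JunB dep replicate 2, and 1.51 and 1.69 in control replicates 0 and 1. Krt73 was at 0 in control replicate 0. The high values of Klk13 and Klk14 outside JunB dep replicate 0 therefore came from the mice with the most inner root sheath RNA, of both genotypes. The other kallikreins did not share this order, and control replicate 2 was the lowest of the 5 mice for Klk8, Klk9 and Klk11. Klk13 and Klk14 were singled out after their values were seen, and the part of hair follicles in them was not tested. Their order, like that of the marker sum, also separates the number series of the sample names described below. In JunB dep replicate 0 the kallikreins were far higher at an intermediate marker level, so the order did not extend to it.

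**Figure D5:**
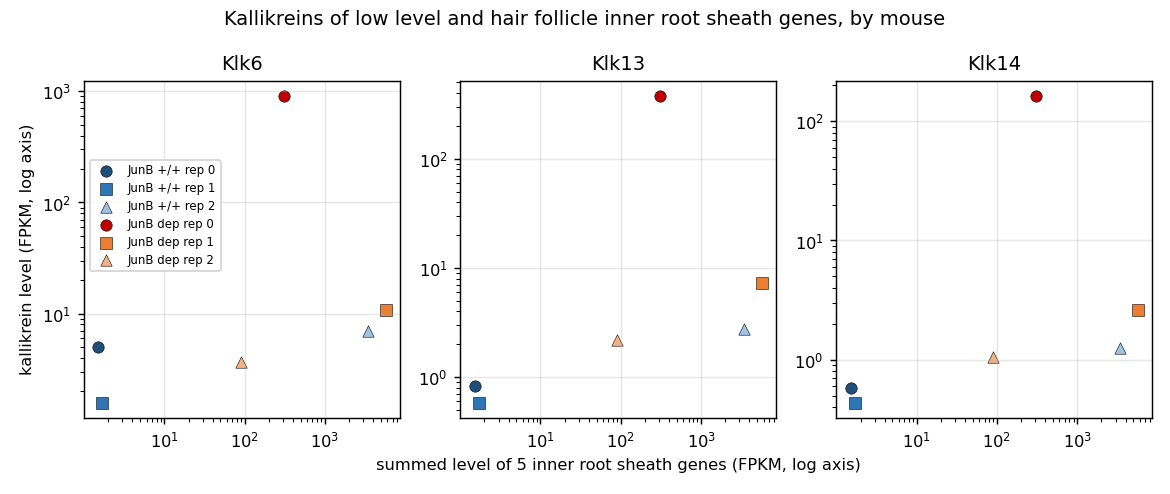
Level of Klk6, Klk13 and Klk14 against the summed level of 5 inner root sheath genes, both in FPKM on log axes, 1 point per mouse. Outside JunB dep replicate 0, the red circle at the top, the highest kallikrein values belong to JunB dep replicate 1 and control replicate 2, whose marker sums are 5720 and 3448 FPKM.

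The sample names fall into 2 number series, one with control replicates 0 and 1 and JunB dep replicate 0, the other with control replicate 2 and JunB dep replicates 1 and 2. No source used here says that the series is a batch. Within the first, the log2 differences of the 9 kallikreins other than Klk5 were 1.08 (Klk7) to 8.28 (Klk13), and that of Klk5 was -0.42. Within the second, they were small, from -0.12 for Klk6 to 0.71 for Klk11, with Klk5 at 0.01. Only Klk11 and Klk9 (0.53) exceeded 0.5 there, and each series holds a genotype with a single mouse. With the series as a block in the fit of all 6 mice, no kallikrein passed (limma, adjusted p from 0.287 for Klk11 to 0.680 for Klk5). Control replicates 0 and 1, of the same series as JunB dep replicate 0, had 5.05 and 1.58 FPKM of Klk6. Control replicate 2, of the other series, had 6.93 FPKM. It was also the highest control for Klk13 (2.76 against 0.824 and 0.583 FPKM) and Klk14 (1.27 against 0.580 and 0.436 FPKM). It was the lowest control for Klk5, Klk7, Klk8, Klk9, Klk11 and Klk12, and lay between the others for Klk10. Outside JunB dep replicate 0, mice of the second series were above those of the first for Klk13, Klk14 and the inner root sheath sum. Series and marker level go together there, so their parts in these values were not separated.

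Inhibitors and activators of kallikreins were examined next, from lists written with earlier results of these data known. Of 10 inhibitor genes 9 were in the table, and none was called with or without JunB dep replicate 0 (median log2 fold change 0.27, and -0.00345 without JunB dep replicate 0, beside 0.03 over all genes). Spink5 was at 78.0, 84.4 and 50.7 FPKM in controls and at 225, 56.7 and 82.7 FPKM in mutants. It was thus highest where the kallikreins were highest, by a smaller factor, and the summed kallikrein FPKM was 5.55 to 8.66 times that of Spink5 in controls, 10.1 and 5.44 times in JunB dep replicates 1 and 2 and 17.0 times in JunB dep replicate 0. Spink6, a second kallikrein inhibitor of skin, was at 1.95 FPKM or below in every mouse. Spink12, named after its values were seen, was at 154 FPKM in JunB dep replicate 0 and at 0.837 FPKM or below in the other 5 mice. Serpina12, the gene of the KLK7 inhibitor vaspin, also named afterwards, went the other way, with 8.41 FPKM in that library and 31.0 to 61.8 FPKM in the others.

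Of 4 activating proteases, 2 were expressed above the filter and neither was called, with or without JunB dep replicate 0. St14, the gene of matriptase, which can activate kallikrein precursors, was at 20.9, 22.7 and 39.9 FPKM in controls and at 38.5, 91.8 and 32.3 FPKM in mutants (log2 fold change 0.85, and 1.02 without JunB dep replicate 0). Its highest values, in JunB dep replicate 1 and control replicate 2, came from the mice with the most inner root sheath RNA. Control replicate 2, with a marker sum of 3448 FPKM, was only slightly above JunB dep replicate 0, with 310 FPKM. The part of hair follicles in the St14 values was not tested. Prss8, the gene of prostasin, ranged from 18.4 to 31.7 FPKM over the controls, which overlapped the 23.1 to 32.4 FPKM of the mutants (0.33, and 0.27 without that library).

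Of 10 substrate and receptor genes 9 were in the table and none was called, with or without JunB dep replicate 0. Their median log2 fold change was 0.12 with all mice and turned to -0.09 without that library. Cdsn, which encodes the corneodesmosome protein corneodesmosin, was at 245, 176 and 242 FPKM in controls and at 171, 203 and 207 FPKM in mutants (log2 fold change -0.18, and -0.09 without JunB dep replicate 0). Dsg1a, which encodes the desmosomal cadherin desmoglein 1, was at 113, 101 and 85.0 FPKM in controls and at 58.1, 69.0 and 62.2 FPKM in mutants. All mutants were below all controls for Dsg1a, a separation seen in 9.16% of all genes tested. Its log2 fold change was -0.65 ± 0.17 (SE), and -0.59 without JunB dep replicate 0. It did not pass the test (limma, adjusted p = 0.257, and 0.411 without that library). F2rl1 was at 22.7, 19.04 and 21.0 FPKM in controls and at 23.8, 28.1 and 21.8 FPKM in mutants, with overlapping groups (log2 fold change 0.22, and 0.24 without JunB dep replicate 0).

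The 16 other kallikrein genes listed for the cluster, Klk1, Klk4, Klk15 and the Klk1b genes, were at or near 0 in skin. Their highest value in any mouse was 2.04 FPKM (Klk1b11, in control replicate 2), 4 were at 0 in all mice, and 2 passed the filter on low values, of which none was called with or without JunB dep replicate 0. Klk1, the renal and salivary kallikrein, did not exceed 0.184 FPKM, and Klk4, which is next to Klk5 and known from enamel, did not exceed 0.108 FPKM. At this end of the cluster, therefore, neither Klk5 nor Klk4 was high in JunB dep replicate 0, whereas Klk6 was. The Klk1b genes are near-identical copies, and reads may have been divided among them, so their single values are uncertain.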

How the data were processed

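Poly(A) RNA of whole skin from 3 JunB dep and 3 JunB +/+ mice was sequenced by the authors with a stranded kit. Per the labels and the study's methods, reads were checked with FastQC and aligned to mm9 with TopHat2 2.0.10, Bowtie 1.0.0 and SAMtools 0.1.19; Cufflinks is also named, without version. The authors deposited FPKM values per gene and mouse, which were used unchanged. Whether the libraries were rescaled further is not stated. Read counts, and the DESeq2 test the authors ran on them, were not used here. FPKM gives no read number, so depth is unknown.

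Genotypes were compared in limma 3.58.1 (R 4.3.3) on log2(FPKM + 0.5), two-sided, with an intensity trend and without a block. The fit covered 17021 genes whose 6-mouse mean reached 0.1 FPKM, and p-values were adjusted over them by Benjamini-Hochberg (threshold 0.05). This scale understates fold changes of low genes. The script was tested on simulated data. The p-values weigh the difference between the group means against the spread within groups of 3 mice each. Genes named are the 10 kallikreins, Junb, genes of the lists past the threshold and Spink5, Spink6, St14, Prss8, Cdsn, Dsg1a, F2rl1 and Klk1; others are said to be named afterwards or are markers and neighbours. The members and lists were chosen with earlier results of these data known. Alternatives were other pseudocounts, filters, scalings, limma settings, thresholds and blocks, and each mouse left out. Positions are from GENCODE on mm9. Promoter windows are from RefSeq (GRCm38.p6). Searches for other letters and outside these windows were added after the data were seen. Protein sequences were not analysed here. Python 3.11.15 with pandas 2.3.3 and matplotlib 3.10.9 served for all else.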

Additional observations from a re-analysis of the deposited data

How the results depend on the processing

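No kallikrein passed an adjusted p of 0.05 in limma under any of the 17 alternative fits, nor at a threshold of 0.1, and of the 170 log2 fold changes so obtained 169 kept their direction. That of Klk7, 0.36, ran from -0.0310 without JunB dep replicate 0 to 0.641 without JunB dep replicate 2. Adjusted p-values of the kallikreins ran from 0.231 (Klk13, without JunB dep replicate 2) to 0.966. The median log2 fold change of the 10 genes, 1.47, ran from 0.26 without JunB dep replicate 0 to 2.29 without JunB dep replicate 2, and was 1.42 to 1.49 under the other pseudocounts, filters and scalings. The count of genes called over the whole table, 235, ran from 0 to 251 with each mouse left out: it was 0 without any one of the 3 controls or without JunB dep replicate 1, 131 without JunB dep replicate 0 and 251 without JunB dep replicate 2. Mice of the same replicate number did not deviate together (correlations of 0.12, -0.23 and -0.43), so the numbers were not taken as pairs. With a replicate block 0 genes were called and 0 kallikreins, and with a block on the number series of the sample names 0 genes and 0 kallikreins, at a median of 2.12 for the kallikreins. The cause was not tested. The unknown read depth limits what can be said of Klk12 and Klk14 in controls.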
